A study of Mus musculus with 3 samples.

Results

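The genes described here are 40 DNA replication and S-phase genes, chosen by symbol from a list, and 40 of 40 were found among the 31053 genes of the expression table. They were read in dendritic cells from the spleens of C57BL/6 mice that carried leukemia or were wild type (WT) and had received vehicle or panobinostat, a histone deacetylase inhibitor, for 2 days. By role, 6 genes code for the MCM helicase (Mcm2 to Mcm7), 6 for licensing, origin firing and S-phase entry, 10 for fork proteins, 3 for nucleotide supply, 7 for chromatin and histone supply, and 8 for repair and the checkpoint.

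A cell prepares to copy its genome when Cdc6 and its partners load the MCM helicase onto origins, and geminin, made from Gmnn, blocks loading once S phase has begun. Cdc45 and the GINS complex then turn the loaded helicase on, the clamp PCNA holds polymerases on DNA, and ribonucleotide reductase and thymidylate synthase supply deoxynucleotides. Transcripts of these genes rise at the end of G1 phase under E2F factors, so they mark cells that are entering or passing through S phase. Conventional dendritic cells (cDC) of the spleen and their precursors still divide there, whereas plasmacytoid dendritic cells (pDC), known for type I interferon production, mostly finish dividing in the bone marrow.

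The samples, 6 in all, were each marked with a hashtag antibody and pooled in 1 capture (10x Genomics 3′ v3), and 4 groups resulted. These were leukemia with vehicle (2 hashed samples), leukemia with panobinostat (2), WT with vehicle (1) and WT with panobinostat (1). The cells had been enriched on an Optiprep density gradient, sorted as GFP-negative and depleted of other cells with a pan-DC magnetic kit. The labels used here do not give the leukemia model, what GFP marks, the dose, or whether a hashed sample is 1 animal, so the p-values measure only the spread between hashed samples.

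After filtering, 18391 cells with 1 hashtag and 155571788 unique molecular identifiers (UMIs, 1 per captured transcript) remained, 1587 to 6067 cells a sample. Clusters were built without the 40 genes, the other listed cell cycle genes and clustered histone genes. A further 3422 genes that varied with the 40 and with G2/M genes were also kept out. The clusters were named from marker genes. They gave 2679 pDC-like, 3086 cDC1-like, 3764 cDC2-like and 3621 mature DC-like cells. The cDC1-like cells had a summed level of 3326 CPM (counts scaled to the same total of UMIs) for their 9 markers, among them Xcr1 and Clec9a. The cDC2-like name rests on weaker evidence: its 7 markers summed to 462 CPM there but to 646 CPM in pDC-like cells, and 4 of the 7 were raised in its larger cluster. The sample leukemia vehicle 2 stood apart, with a median of 84 UMIs of its own hashtag against 345 to 766 in the other samples, and it gave 1309 of the 1575 cells of an unnamed cluster led by Ms4a2 and Hdc. Cells called doublets by a simulated-doublet score and left out had a higher level of the S-phase genes than the cells kept, with medians of 930 against 567 CPM.

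Over all 18391 kept cells, of dendritic and other classes, the 40 genes differed in depth and in how they were shared among cells. Most UMIs came from Pclaf, the PCNA-associated factor (27792), Gmnn (16162), Pcna (14206), Tyms, thymidylate synthase (14115), and Slbp, the histone mRNA stem-loop binding protein (13260). Fewest came from Exo1, an exonuclease (1430), Dscc1, a subunit of an alternative clamp loader (1584), Ccne2, cyclin E2 (1642), Mcm10 (1980) and Cdc45 (2805). Each cell was then thinned to 2000 UMIs, and a cell with 5 or more UMIs from the 40 genes was called S-phase-rich. Leaving each gene out of its own count, Ccne2 was 25.2 times as high in S-phase-rich cells as in the others, Rrm2, the small subunit of ribonucleotide reductase, 22.6 times and Cdc6 18.3 times. At the other end were Pold3, a polymerase delta subunit (3.11 times), Usp1, a deubiquitinase of the DNA damage response (3.52), Rfc2 of the clamp loader (4.004) and Slbp (4.07). These ratios describe how the genes go together within all kept cells and were not tested. Of the 3635 S-phase-rich cells, 1502 were in unnamed clusters and 750 were erythroid-like, so differences between cell classes enter the ratios.

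E2F factors bind DNA at letters such as TTTCCCGC, TTTGGCGC, TTTCGCGC or TTTGCCGC, so these were searched on both strands of RefSeq promoters (250 bases before to 50 after a gene's start, GRCm38.p6); matches on opposite strands can overlap, as in Mcm5. RefSeq promoters were matched for 30 of the 40 genes, and 14 of these (46.7%) held at least 1 match, against 2.605% of 27025 genes. Among 37 other replication genes with a promoter the share was 29.7%. The letters CCAAT, bound by the factor NF-Y, stood in 70.0% of the 30 genes and in 41.1% of all genes. Of the 12 genes with the smallest p-values for panobinostat, Gins2, Gmnn, Dscc1 and Mcm4 had no matched promoter and were not searched. The promoters of Pcna, Rrm2 and Nasp held no E2F match. Shown are the promoters with an E2F match among the 12 genes with the smallest p-values for panobinostat, 5 genes in all (Lig1 has 3 RefSeq promoters and Uhrf1 2, of which 1 each holds a match); capitals mark the match, which is the reverse complement of the letters where it lies on the other strand.
Lig1: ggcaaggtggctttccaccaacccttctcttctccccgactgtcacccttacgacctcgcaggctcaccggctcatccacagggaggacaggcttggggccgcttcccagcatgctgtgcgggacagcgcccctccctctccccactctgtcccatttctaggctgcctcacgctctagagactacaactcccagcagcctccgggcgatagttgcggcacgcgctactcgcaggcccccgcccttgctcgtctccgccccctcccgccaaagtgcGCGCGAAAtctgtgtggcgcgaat
Mcm3: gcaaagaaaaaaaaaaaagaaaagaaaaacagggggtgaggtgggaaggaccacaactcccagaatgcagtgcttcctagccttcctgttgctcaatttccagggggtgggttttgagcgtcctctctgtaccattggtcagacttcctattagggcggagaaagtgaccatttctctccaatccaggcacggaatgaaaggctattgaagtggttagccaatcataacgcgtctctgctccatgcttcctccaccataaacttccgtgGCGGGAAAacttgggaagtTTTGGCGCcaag
Pclaf: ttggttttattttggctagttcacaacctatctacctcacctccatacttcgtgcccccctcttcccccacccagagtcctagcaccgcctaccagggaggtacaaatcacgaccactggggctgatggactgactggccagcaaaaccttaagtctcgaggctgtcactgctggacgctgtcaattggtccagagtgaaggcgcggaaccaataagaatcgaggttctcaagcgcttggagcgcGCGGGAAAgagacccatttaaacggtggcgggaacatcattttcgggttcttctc
Uhrf1: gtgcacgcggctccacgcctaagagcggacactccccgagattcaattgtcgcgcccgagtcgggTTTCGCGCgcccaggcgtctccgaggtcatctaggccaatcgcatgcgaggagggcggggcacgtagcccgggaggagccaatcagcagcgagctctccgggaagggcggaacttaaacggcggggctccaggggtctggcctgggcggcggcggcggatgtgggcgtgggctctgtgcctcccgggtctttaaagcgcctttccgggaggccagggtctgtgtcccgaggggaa
Cdc6: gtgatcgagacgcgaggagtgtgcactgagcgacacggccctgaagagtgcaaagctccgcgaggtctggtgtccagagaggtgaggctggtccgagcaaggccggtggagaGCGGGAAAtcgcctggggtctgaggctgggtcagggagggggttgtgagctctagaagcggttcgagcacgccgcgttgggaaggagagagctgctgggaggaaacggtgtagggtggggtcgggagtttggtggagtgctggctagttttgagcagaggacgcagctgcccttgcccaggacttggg
The Lig1 window is chr7:13278576-13278875 (plus strand) and its match begins 27 bases after the start site, on the other strand. The Mcm3 window is chr1:20820263-20820562 (minus strand) and holds 2 matches, at 20 and 39. The Pclaf window, chr9:65890073-65890372 (plus strand), has its match at -5, the Uhrf1 window, chr17:56304063-56304362 (plus strand), at -185, and the Cdc6 window, chr11:98907901-98908200 (plus strand), at -138. A match is a run of letters in this window and no evidence of binding, and no match says only that these letters are not in it.

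Conventional dendritic cells carried the most S-phase transcripts, and pDC-like cells the fewest. The summed level of the 40 genes was 1937 ± 213 CPM in cDC2-like cells and 1518 ± 423 CPM in cDC1-like cells (SD, n = 6 hashed samples). It was 715 ± 154 CPM in mature DC-like cells and 507 ± 35.1 CPM in pDC-like cells. Taken over samples, each neighbouring pair in this order overlapped. The samples spanned 1727 to 2172 CPM in cDC2-like and 874 to 2179 CPM in cDC1-like cells. They spanned 520 to 970 CPM in mature DC-like and 459 to 549 CPM in pDC-like cells. Within every sample, cDC1-like cells lay above mature DC-like cells, and these above pDC-like cells. Within samples cDC2-like cells also lay above cDC1-like cells, except in leukemia panobinostat 2 (2048 against 2179 CPM). For comparison, erythroid-like cells held 2923 to 3848 CPM (14 to 471 cells per sample). Myeloid progenitor-like cells held 3875 to 5655 CPM, on only 3 to 22 cells per sample. Gene by gene, 35 of the 40 were highest in cDC2-like and 5 in cDC1-like cells, and 30 were lowest in pDC-like and 10 in mature DC-like cells.

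**Figure D1:**
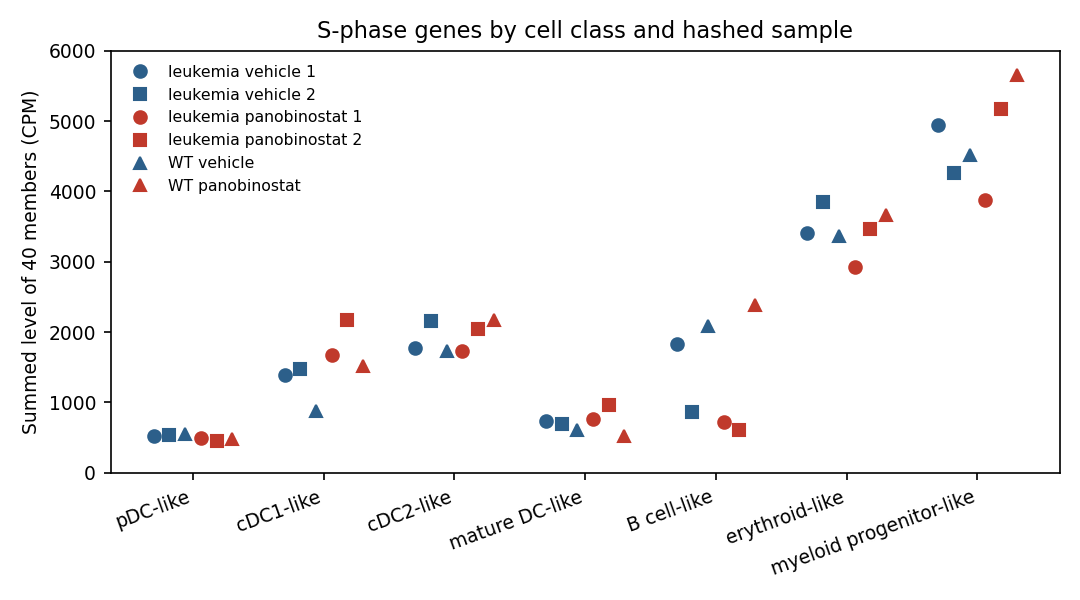
Summed level of the 40 S-phase genes (CPM, y axis) in 7 cell classes (x axis), with 1 point per hashed sample, blue for vehicle and red for panobinostat. Erythroid-like and myeloid progenitor-like cells lie highest, pDC-like cells lowest (459 to 549 CPM), and among the dendritic classes only the cDC1-like and pDC-like points separate by treatment.

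The class difference was tested gene by gene in 1 fit over the 4 dendritic classes with the hashed sample as a block (edgeR quasi-likelihood test, Benjamini-Hochberg adjustment over 10886 genes, called at an adjusted p under 0.05 and a log2 difference of 1 or more). Against cDC1-like cells, 34 of the 40 genes were lower in pDC-like cells, where 15.9% of all genes were, and the median log2 difference was -2.01. Against cDC2-like cells 35 were lower, where 15.6% of all genes were. The gene furthest apart was Pclaf: its level in pDC-like cells was 3.64 to 12.3 CPM over the 6 samples, against 89.3 to 272 CPM in cDC1-like and 201 to 364 CPM in cDC2-like cells. The log2 difference of pDC-like minus cDC1-like cells was -4.35 for Pclaf (SE 0.23), with an adjusted p of 4.81e-17 by edgeR. Next came Ccne2 (-3.68) and Mcm10 (-3.67) against cDC1-like cells, and Cdca7, a chromatin remodelling partner of Hells (-3.68), and Rrm2 (-3.62) against cDC2-like cells. The counts behind Ccne2 and Mcm10 in pDC-like cells were 13 UMIs each.

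Ung did not follow the others. This uracil-DNA glycosylase, which removes uracil from DNA, was at 14.5 to 24.8 CPM in pDC-like cells, 10.02 to 31.7 CPM in cDC1-like cells and 11.4 to 25.4 CPM in cDC2-like cells, 3 ranges that overlap. In mature DC-like cells it was at 2.36 to 7.47 CPM, below every pDC-like sample. It was the 1 gene of the 40 called higher in pDC-like than in mature DC-like cells (log2 1.99, SE 0.27, edgeR adjusted p 1.135e-07), where 18.6% of all genes were, and 18 were called lower, where 21.5% of all genes were. The lower genes were led by Uhrf1, which carries DNA methylation through replication (-2.89), Pclaf (-2.67) and Lig1, the DNA ligase of the lagging strand (-2.33). With library totals in place of TMM factors, 10 were lower and 1 higher.

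Taken as a class, mature DC-like cells were lower than both conventional classes. The clusters within the class differed, from 377 to 1239 CPM of the 40 genes. Its highest clusters, at 976 and 1239 CPM, lay above the smaller cDC1-like cluster (885 CPM) and the smaller cDC2-like cluster (799 CPM). The tests used the sums of each class. In cDC1-like cells 26 of the 40 were higher than in mature DC-like cells, where 15.4% of all genes were, led by Ung (log2 2.20), Cdca7 (2.18) and Cdc45 (2.06). In cDC2-like cells 28 were higher and 0 lower, where 13.6% of all genes were higher and 15.2% lower, led by Cdca7 (2.32) and Ung (2.15). Not all followed: Uhrf1 was 18.9 to 40.2 CPM in mature DC-like and 13.4 to 46.2 CPM in cDC1-like cells, a log2 difference of -0.17 (SE 0.14, edgeR adjusted p 0.259). Between cDC1-like and cDC2-like cells the median log2 difference was -0.12, 1 gene was called higher (8.99% of all genes were) and 0 lower (10.8% of all genes were), with 5 and 12 at an unadjusted p under 0.05. The 1 gene was Hells, a chromatin remodelling helicase, at 36.1 to 72.5 CPM in cDC1-like and 25.6 to 39.6 CPM in cDC2-like cells (log2 1.004, SE 0.11, edgeR adjusted p 6.195e-09). This value sat at the threshold of 1, and Hells was not called with finer clusters, with cell cycle genes in the clustering, with doublets kept, with library totals, or without leukemia vehicle 1, leukemia panobinostat 1 or leukemia panobinostat 2.

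Inhibitors of cyclin-dependent kinases hold cells out of S phase, and different ones were high in pDC-like and in mature DC-like cells. Comparing pDC-like with cDC1-like cells, Cdkn2d was higher by 2.98 on the log2 scale (SE 0.12), with an edgeR adjusted p of 1.642e-20, and Cdkn2c by 1.69. Cdkn1a was lower there (-2.71). In cDC1-like minus mature DC-like cells the log2 difference was -2.77 for Cdkn1a and -6.19 for Cdkn2b. Of all genes, 15.6% were higher and 15.9% lower in the former comparison, and 18.4% were lower in the latter. Regulators of S-phase entry went both ways. In pDC-like cells Ccnd1 (1.47) and Cdk6 (1.46) were higher than in cDC1-like cells and E2f8 (-2.87) lower. In cDC1-like minus mature DC-like cells Cdk6 (-2.82) and Ccnd2 (-3.03) were lower and Cdk4 (1.32) higher. The part of these genes in the S-phase levels was not tested.

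The share of S-phase-rich cells differed between classes. S-phase-rich cells made up 14.7% of cDC1-like cells (447 of 3051 thinned cells, exact 95% binomial interval 13.4 to 15.96%) and 18.1% of cDC2-like cells (661 of 3655). They made up 4.49% of mature DC-like cells (149 of 3318) and 0.905% of pDC-like cells (24 of 2651, interval 0.581 to 1.34%), and 61.6% of erythroid-like cells. The average S-phase-rich cell held 9.97 UMIs of the 40 genes among cDC1-like cells, 11.5 among cDC2-like cells, 10.05 among mature DC-like cells and 6.5 among pDC-like cells, and the remaining cells held 0.894 to 1.07 in the 4 classes. The rule itself bounds both means, since it places every cell with 5 or more UMIs in the former. The class is a range of a count and not a kind of cell: 113 cDC1-like cells had 4 UMIs and 76 had 5. In pDC-like cells 54 had 4 and 16 had 5, so most of the 24 lay near the threshold. At 1 UMI or more the classes were close (59.3 to 68.8% of cells), and 1 UMI in a cell was read as background.

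S-phase-rich cells also carried mitosis genes, which the rule did not use. Of the S-phase-rich cDC1-like cells, 72.0% (67.6 to 76.2%) had 5 or more UMIs from 56 G2/M genes, against 10.6% of the other cDC1-like cells. The shares were 74.4 against 13.6% in cDC2-like, 66.4 against 5.24% in mature DC-like and 20.8 (5 of 24 cells, 7.13 to 42.2%) against 7.38% in pDC-like cells. S-phase-rich cDC1-like cells kept their class markers, with a median of 6 cDC1 marker UMIs as in the other cDC1-like cells. Their median was 0 UMIs for the pDC, cDC2, mature DC and B cell markers and 1 for the erythroid markers. In cDC2-like cells, S-phase-rich or not, the median was 1 UMI for cDC2 markers, 1 for cDC1 markers and 2 for erythroid markers. These counts are too low to show whether S-phase-rich cDC2-like cells kept their class markers. In mature DC-like cells the median of their own markers was 5 in S-phase-rich cells against 9 in the others. Before thinning, S-phase-rich cells were larger libraries, with a median of 17212 against 11872 UMIs in cDC1-like and 7828 against 5125 in cDC2-like cells.

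**Figure D2:**
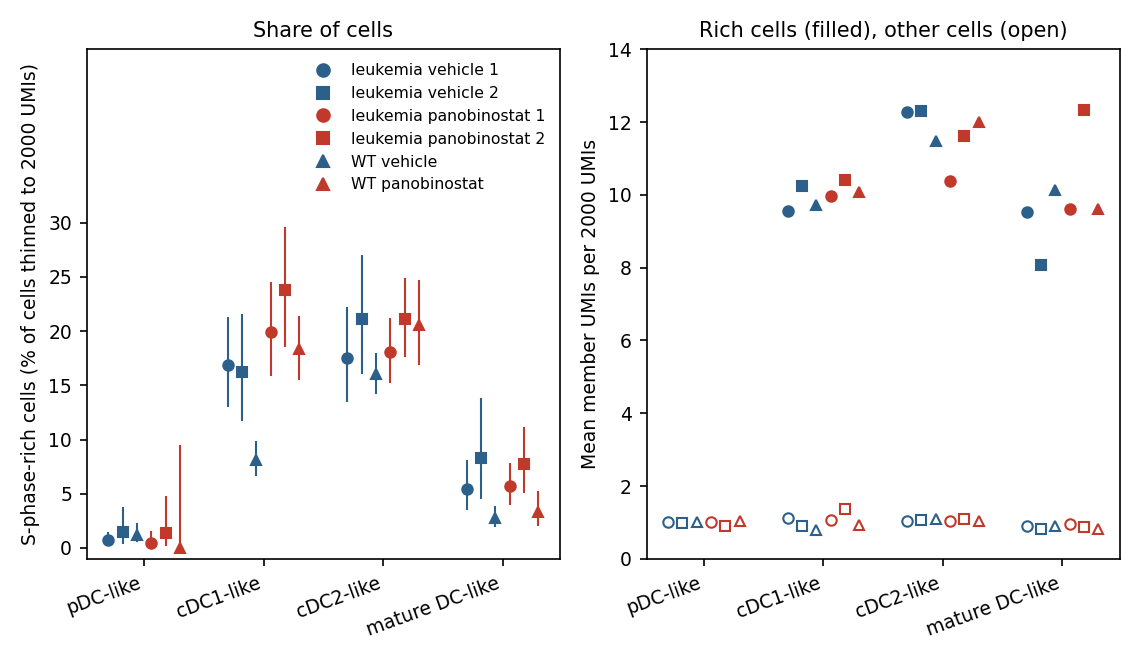
Left, S-phase-rich cells as a percent of cells thinned to 2000 UMIs (y axis) by class and hashed sample, with exact 95% binomial intervals; right, mean UMIs of the 40 genes per 2000 UMIs in S-phase-rich cells (filled) and in the other cells (open). The share varies between classes and, in cDC1-like cells, by treatment (8.16 to 16.9% with vehicle, 18.3 to 23.75% with panobinostat), while the open points lie between 0.783 and 1.37 UMIs.

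With panobinostat, replication genes of cDC1-like cells rose, and no other dendritic class had a call among the 40. The classes differed in depth, with 43014998 UMIs in cDC1-like cells and 15104798 to 21721514 in the other dendritic classes. The median per cell was 12354.5 UMIs against 4304 to 5392.5. The part of depth in this contrast between classes was not tested. The summed level of the 40 genes in cDC1-like cells was 1385 and 1475 CPM in leukemia with vehicle and 874 CPM in WT with vehicle. With panobinostat it was 1671 and 2179 CPM in leukemia and 1523 CPM in WT, so that each treated sample lay above each vehicle sample (1245 ± 324 against 1791 ± 344 CPM, SD, n = 3 each). The ratio of treated to vehicle was 1.35 in leukemia and 1.74 in WT. In the test across 9855 genes with disease state as a covariate (edgeR quasi-likelihood test, Benjamini-Hochberg adjustment), 23 of the 40 rose and 0 fell, where 1.36% of all genes tested rose and 0.284% fell. The fitted log2 difference was above 0 for 40 of 40 genes, with a median of 0.57 against -0.01 over all genes, and 38 had an unadjusted p under 0.05. In summed counts more cells in S phase and more RNA per such cell cannot be told apart, so shares of cells are given further on.

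The count of 23 moved with single samples. Without leukemia vehicle 1 it was 1, without leukemia panobinostat 2 it was 3, without WT vehicle or WT panobinostat 6 each, and without leukemia panobinostat 1 it was 36; DESeq2 called 9. In each of these fits 40 of 40 genes stayed above 0, with medians of 0.42 to 0.70. The 4 leukemia samples alone gave 5.

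Among the helicase genes 5 of 6 rose, where 1.36% of all genes tested did. Mcm3 was at 55.9 and 58.3 CPM in leukemia with vehicle, 74.5 and 87.1 with panobinostat, and went from 31.6 CPM in WT vehicle to 52.3 CPM in WT panobinostat (log2 0.59, SE 0.09, edgeR adjusted p 0.00852). The treated WT sample thus lay below the leukemia vehicle samples, and the groups overlap unless disease state is taken into account. For Mcm4 WT panobinostat lay between the leukemia vehicle samples, with levels of 29.2 and 30.6 CPM against 38.6 and 51.9 CPM in leukemia and at 16.8 against 30.2 CPM in WT (log2 0.69, SE 0.12). The helicase gene that was not called was Mcm5 (log2 0.47, SE 0.11, edgeR adjusted p 0.0514).

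Among the licensing and firing genes 3 of 6 rose, where 1.36% of all genes tested did. Gins2, a subunit of the GINS complex, was at 20.1, 15.01 and 11.7 CPM in the vehicle samples (leukemia 1, leukemia 2, WT) and at 28.1, 30.6 and 23.2 CPM in the panobinostat samples, without overlap (log2 0.83, SE 0.13, edgeR adjusted p 0.00781). Gmnn was at 56.7, 59.7 and 35.5 CPM with vehicle and at 75.1, 86.8 and 64.9 CPM with panobinostat, again without overlap (log2 0.63, SE 0.10). Cdc6, the loader of the helicase, was at 9.25, 12.07 and 6.18 CPM with vehicle and at 15.5, 18.002 and 12.03 CPM with panobinostat (log2 0.80, SE 0.16), where leukemia vehicle 2 and WT panobinostat were level. Mcm10 was not called, at 5.83 to 11.5 CPM against 8.06 to 12.2 CPM (log2 0.41, SE 0.21).

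Fork genes rose in 6 of 10 cases (1.36% of all genes tested rose) and held the smallest p-value of the 40. Lig1 was at 45.2, 45.6 and 25.7 CPM with vehicle and at 62.7, 74.4 and 55.3 CPM with panobinostat, without overlap (log2 0.80, SE 0.11, edgeR adjusted p 0.00504). Pclaf was at 142, 170 and 89.3 CPM with vehicle and at 184, 272 and 199 CPM with panobinostat (log2 0.77, SE 0.13). For both genes WT vehicle was lowest and leukemia panobinostat 2 highest. Pcna was at 66.6, 64.5 and 48.0 CPM against 78.0, 98.6 and 79.3 CPM (log2 0.54, SE 0.10), and Dscc1 at 5.96, 5.89 and 3.91 CPM against 10.7, 14.2 and 9.02 CPM (log2 1.12, SE 0.18). Dscc1 had the largest difference of the 40 and 316 UMIs in these cells. Pold3, the gene least tied to S-phase-rich cells over all kept cells of every class, also had the lowest difference (log2 0.32, SE 0.13, edgeR adjusted p 0.241).

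All 3 nucleotide supply genes rose, where 1.36% of all genes tested did. Rrm2 was at 36.4, 48.9 and 22.9 CPM with vehicle and at 50.5, 76.8 and 57.9 CPM with panobinostat (log2 0.88, SE 0.17, edgeR adjusted p 0.0206), and Tyms and Rrm1, the large subunit of ribonucleotide reductase, by 0.60 and 0.58 on the log2 scale. Of the chromatin and histone genes 4 of 7 rose, among them Uhrf1, at 27.1, 25.9 and 13.4 CPM against 32.2, 46.2 and 30.1 CPM (log2 0.80, SE 0.15), and Nasp, a histone chaperone, at 56.1, 57.1 and 32.2 CPM against 66.6, 79.3 and 51.6 CPM (log2 0.49, SE 0.10). Uhrf1 groups did not overlap and Nasp groups did. Of the repair and checkpoint genes 2 of 8 rose, and the roles were not compared by a test. The 2 were Tipin of the fork protection complex (log2 0.61) and Dtl, an adaptor of a ubiquitin ligase that works with PCNA (0.43). Just outside the threshold stood Blm, a RecQ helicase, and Clspn, claspin, each with an edgeR adjusted p of 0.0514, and furthest from it Exo1 (log2 0.37, SE 0.24, edgeR adjusted p 0.501).

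**Figure D3:**
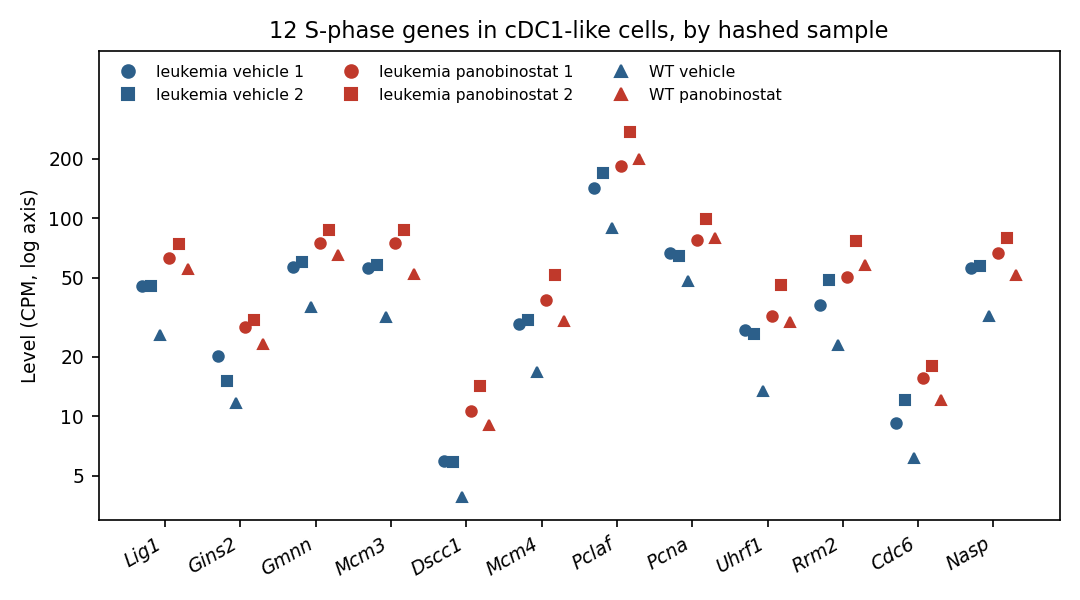
Level (CPM, log axis) in cDC1-like cells of the 12 S-phase genes with the smallest p-values for panobinostat, with 1 point per hashed sample, blue for vehicle and red for panobinostat. Panobinostat points lie above the vehicle points of the same disease state for each gene, and the WT vehicle point (triangle) is the lowest, as for Lig1 at 25.7 CPM.

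Without a fit, 16 of the 40 genes were higher in all 3 panobinostat samples than in all 3 vehicle samples, where 4.97% of all genes tested were, and 0 were lower. Of 18 genes that rose and have a RefSeq promoter, 9 held an E2F match, and of 12 that were not called, 5 did.

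In cDC1-like cells the share of S-phase-rich cells was higher in each panobinostat sample, and the mean content of such cells, which the rule bounds, overlapped between treatments; no test was made of either. The share was 16.9% (57 of 338 cells) and 16.2% (38 of 234) in leukemia with vehicle and 8.16% (97 of 1189) in WT with vehicle. With panobinostat it was 19.9% (69 of 346), 23.75% (57 of 240) and 18.3% (129 of 704), so the groups did not overlap (13.8 ± 4.86 against 20.7 ± 2.79%, SD, n = 3). The exact binomial intervals, which cover counting error only and not the spread between samples, were 13.03 to 21.3% and 15.9 to 24.5% for the first leukemia sample of each treatment and 6.67 to 9.86% and 15.5 to 21.4% for the WT samples, of which there is 1 per treatment. S-phase-rich cells held 9.84 ± 0.353 UMIs of the 40 genes with vehicle and 10.1 ± 0.227 with panobinostat, and the remaining cells 0.932 ± 0.175 and 1.13 ± 0.221, and both pairs overlap. With a threshold of 3 UMIs the groups overlapped, at 29.3% in leukemia vehicle 1 and 27.6% in WT panobinostat; with a threshold of 8 they did not. With called doublets kept they overlapped as well, at 18.9% in leukemia vehicle 1 and 18.5% in WT panobinostat.

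**Figure D4:**
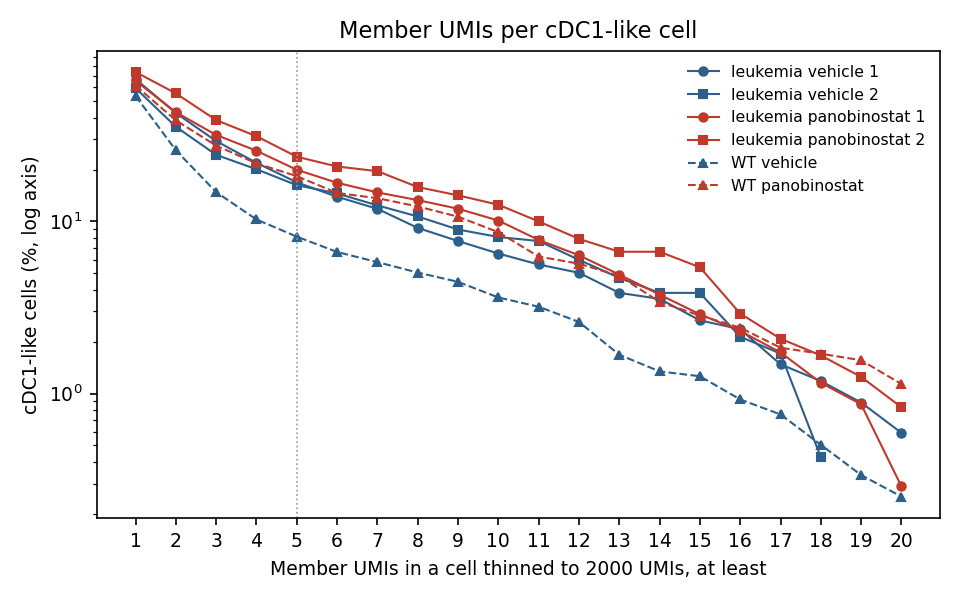
Percent of cDC1-like cells (y axis, log axis) with at least the number of UMIs of the 40 genes on the x axis, in cells thinned to 2000 UMIs, with 1 line per hashed sample and a dotted line at 5. The WT vehicle line is the lowest up to 17 UMIs (53.6% at 1, 8.16% at 5, 3.62% at 10), and the panobinostat lines lie above the vehicle lines from 5 to 10 UMIs.

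In cDC1-like cells depth separated by treatment, while cluster shares and marker levels overlapped. The part of depth and cell makeup in the result was not tested. The median number of UMIs per cell was 11052 to 12793 with vehicle and 13166 to 13915 with panobinostat. After each cell was thinned to 2000 UMIs, 32 of the 40 genes could be tested, 32 of 32 were above 0 with a median log2 difference of 0.51, and 1 was called. The cells fell in a cluster led by Xcr1 and a cluster led by Cxcl9 and Cxcl10. The former held 81.5, 91.0 and 89.2% of the cDC1-like cells with vehicle and 74.7, 79.7 and 88.5% with panobinostat. Within it the summed level was 1529, 1498 and 917 CPM with vehicle and 1893, 2387 and 1620 CPM with panobinostat, also without overlap. Within the cluster led by Cxcl9 it was 742, 1298 and 518 CPM and 1085, 1421 and 743 CPM, which overlap. Summed mature DC markers in cDC1-like cells were 34.7 to 137 CPM with vehicle and 110 to 206 CPM with panobinostat, and erythroid markers 927 to 1266 CPM against 702 to 1099 CPM, with 7 of 7 and 10 of 10 markers detected.

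In the other dendritic classes 0 of the S-phase genes were called for panobinostat by edgeR. In cDC2-like cells 40 were tested, the median log2 difference was 0.16 and 8 had an unadjusted p under 0.05, all higher (0.147% of all genes were called higher and 0.0524% lower). There the summed level was 1778, 2159 and 1736 CPM with vehicle and 1727, 2048 and 2172 CPM with panobinostat, which overlap. The genes whose cDC2-like groups did not overlap numbered 6, Chaf1b, Mcm3, Mcm4, Mcm7, Slbp and Ung, where 3.44% of all genes did so in that direction. In mature DC-like cells 36 were tested, with a median of 0.06 and 1 at an unadjusted p under 0.05 (0.221% called higher and 0.0552% lower), and 0 were without overlap, where 4.23% of all genes were higher and 8.11% lower without overlap. In B cell-like cells 0 of 25 were called by edgeR, with 3 lower at an unadjusted p under 0.05 (0.0595% of all genes were called higher and 0.0298% lower). DESeq2 also called 0 in cDC2-like, mature DC-like and pDC-like cells.

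pDC-like cells went the other way without a call. Their summed level was 529, 532 and 549 CPM with vehicle and 489, 459 and 482 CPM with panobinostat, a small difference without overlap (537 ± 11.1 against 476.5 ± 15.5 CPM, SD, n = 3). Of the 33 genes tested, 25 had a fitted difference under 0, the median was -0.20, and 0 were called by edgeR (0.033% of all genes were called lower), with 2 at an unadjusted p under 0.05. The number lower in every panobinostat sample than in every vehicle sample was 11 of 33, where 7.62% of all genes were. The WT panobinostat sample held 37 pDC-like cells and 201310 UMIs, and Gmnn, Hells and Rrm2 had 0 UMIs there. No S-phase-rich cell was among the 37, which allows a share of up to 8.11%.

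**Figure D5:**
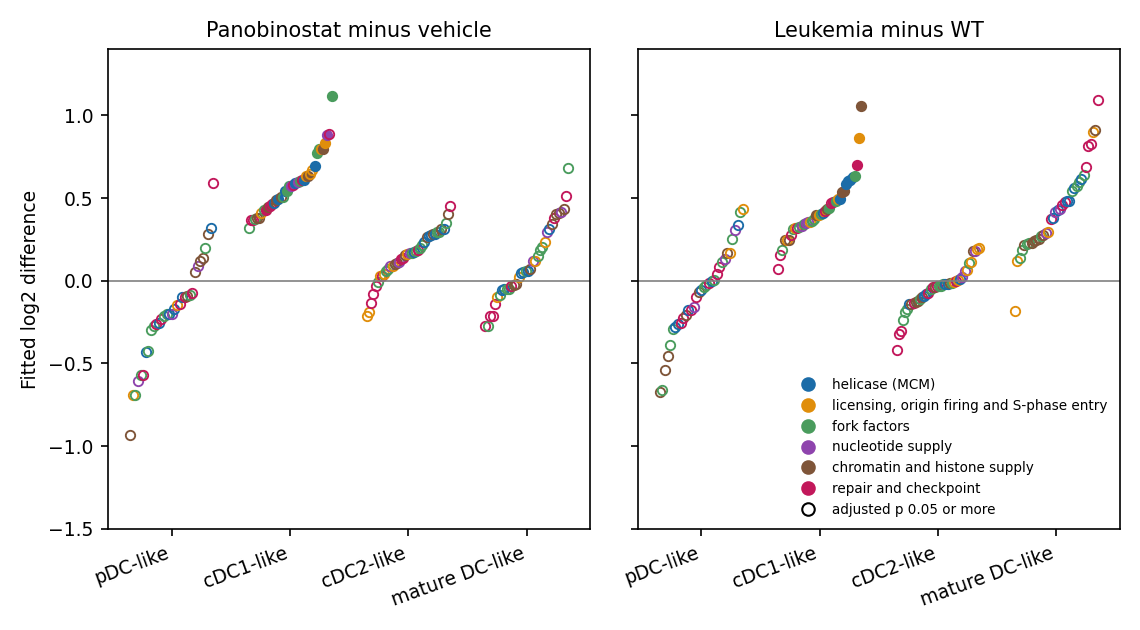
Fitted log2 differences of the S-phase genes in 4 dendritic classes, panobinostat minus vehicle on the left and leukemia minus WT on the right, with 1 point per gene coloured by role and filled where the adjusted p is under 0.05. Filled points appear only in cDC1-like cells, 23 on the left and 16 on the right.

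Whether panobinostat acted differently in cDC1-like cells than in the other classes was tested by an interaction of class and treatment. By edgeR 0 of the 40 genes were called in any of the 6 pairs of classes, where 0 to 0.0268% of all genes were called in a direction (0.00893% higher for cDC1-like minus cDC2-like and for pDC-like minus mature DC-like cells). For cDC1-like minus cDC2-like cells the median difference in the effect was 0.44, 40 of 40 were above 0 and 16 had an unadjusted p under 0.05; Gins2 had the smallest adjusted p (log2 1.02, SE 0.22, edgeR adjusted p 0.0988). Without WT panobinostat 1 gene was called for this pair. So an effect of panobinostat on these genes was called in cDC1-like cells, and a difference from the other classes was not.

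The effect was also compared between leukemia and WT, by an interaction added after the data had been seen. By edgeR 0 of the S-phase genes were called in the 4 dendritic classes, where 0.0607% of all genes were higher and 0.0911% lower in pDC-like, 0.225 and 0.206% in cDC1-like, 0.0604 and 0.181% in cDC2-like and 0.467 and 0.125% in mature DC-like cells. In cDC1-like cells 39 of 40 were below 0 (a smaller effect in leukemia), with a median of -0.27 and 10 at an unadjusted p under 0.05, led by Tyms (log2 -0.61, SE 0.19). Mitosis genes had larger differences there: 8 of 54 G2/M genes were called lower (0.206% of all genes were), among them Ube2c, the ubiquitin-conjugating enzyme of the anaphase-promoting complex (-1.31), Ccnb2, cyclin B2 (-1.54), and Cdc20, an activator of that complex (-1.81). WT has 1 sample per treatment, so its spread is taken from the leukemia pairs.

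Leukemia, set against WT in the same fit, also went with higher S-phase genes in cDC1-like cells. By edgeR 16 of 40 were higher and 0 lower, where 3.24% of all genes were higher and 4.93% lower, with a median log2 difference of 0.40 and 40 of 40 above 0. The largest was Cdca7, at 19.5, 20.6, 24.6 and 24.7 CPM in leukemia and at 7.34 (vehicle) and 13.1 CPM (panobinostat) in WT (log2 1.06, SE 0.14, edgeR adjusted p 0.000371). No leukemia sample overlapped with a WT sample for Cdca7. Of the helicase genes 5 of 6 were higher, Mcm3 (log2 0.63, SE 0.09), Mcm6 (0.60, SE 0.11) and Mcm4 (0.58, SE 0.12) among them, and so was Nasp (0.54, SE 0.10); of the nucleotide supply genes 0 of 3 were. The WT vehicle sample was the lowest, and without it 2 genes were called; without leukemia vehicle 1 it was 4, without leukemia panobinostat 2 it was 8, without leukemia vehicle 2 it was 9, without leukemia panobinostat 1 it was 28, and DESeq2 called 5. This comparison and the one for panobinostat share all 6 samples, and are not independent.

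In mature DC-like cells 35 of 36 S-phase genes had a fitted difference above 0 in leukemia, with a median of 0.42 and 10 at an unadjusted p under 0.05, but 0 were called by edgeR (1.09% of all genes were higher) and 0 by DESeq2; without WT vehicle 3 were. The clusters that made up this class differed between samples: a cluster led by Lta and Ccl3, with 840 to 1714 CPM of the 40 genes, held 22.5 to 35.3% of it in leukemia and 3.18 to 6.402% in WT. In pDC-like and cDC2-like cells 0 were called by edgeR or DESeq2 (of all genes, 0.341% were higher and 0.616% lower in pDC-like, 0.0734% and 0.126% in cDC2-like cells), with 1 lower in each at an unadjusted p under 0.05. B cell-like cells held 2877 CPM of the pDC markers beside 4457 CPM of their own markers. The pDC markers were at 2564 to 3810 CPM in leukemia and at 2178 to 2832 CPM in WT, and their bearing on the S-phase levels was not tested. S-phase levels in B cell-like cells were lower in leukemia, on 20 to 72 cells per sample. There 4 of 25 genes were lower by edgeR and 0 higher, where 1.43% of all genes were lower and 1.16% higher: Pclaf (log2 -2.15, SE 0.41), Tipin (-1.46), Gmnn (-1.39) and Tyms (-1.34). DESeq2 called 0. Without leukemia vehicle 2, leukemia panobinostat 2 or WT panobinostat 0 were called, without leukemia panobinostat 1 it was 2, and without WT vehicle 10.

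Other genes of the same pathways, outside the 40, were read from 4 further lists. In cDC1-like cells with panobinostat, 7 of 43 other replication genes rose by edgeR and 0 fell, with a median of 0.45, where 1.36% of all genes rose and 0.284% fell. They include Dut, which keeps uracil out of DNA (log2 0.53, SE 0.09), Dnmt1, the maintenance DNA methyltransferase (0.64, SE 0.11), and Tk1, thymidine kinase (0.74, SE 0.14). Of 20 regulators of S-phase entry 2 rose: E2f1 (log2 0.73, SE 0.12, edgeR adjusted p 0.0106) and Ccnd2, cyclin D2 (1.35, SE 0.27, edgeR adjusted p 0.0259). Ccnd2 rose in cDC2-like cells too (0.71, SE 0.12), although 0 of the 40 were called there. Of 54 G2/M genes 6 rose, among them Mki67 (0.64, SE 0.10), Ckap2l (0.88, SE 0.17) and Top2a (0.58, SE 0.12), and of 4 kinase inhibitors tested 0 did.

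The same lists were read for leukemia against WT. In cDC1-like cells 3.24% of all genes were higher and 4.93% lower. By edgeR 6 of 43 other replication genes were higher, among them Rfc3 (log2 0.59) and Cdt1, a licensing factor (0.63), and 1, Pold4, was lower (-0.50). Of the entry regulators 4 were higher, among them Ccnd1 (0.41), Tfdp1, a partner of E2F (0.56), and Ccnd3 (0.41). Of 54 G2/M genes 0 were higher and 1, Gas2l3, was lower (-0.67), with 1 higher and 3 lower at an unadjusted p under 0.05. In mature DC-like cells Ccnd2 (1.005, SE 0.12) and Cdk6, the kinase it activates (0.82, SE 0.14), were higher in leukemia.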

How the data were processed

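The deposited matrix holds raw UMI counts per gene, hashtag and antibody for each barcode of 1 pooled capture, per the file headers. Software named in the submitters' processing notes is Seurat 3.1.0 and Cell Ranger 3.1.0, and the build is mm10 (GRCm38); their roles are not given in the sources used here. The names D5W and LBH in the hashtag list were read as vehicle and panobinostat.

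Of 38717 barcodes, 22157 carried 1 hashtag (count above the 99% point of a negative binomial background). Kept cells had 500 or more genes, at most 10% mitochondrial counts and a simulated-doublet score up to 0.5; the score marked 11.98% of 1-hashtag barcodes and 52.01% of barcodes with several. Cells were clustered on 2000 variable genes, 30 principal components and 15 neighbours (leidenalg 0.10.2, resolution 1). Clusters were named where 3 or more markers of a class were raised, at least 2 more than of the next class, where the class's markers averaged at least 0.25 (log2) above other cells, and where the 10 leading genes held no more markers of another class than of its own; 8 of 25 clusters (3336 cells) stayed unnamed.

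UMI counts of a class were summed per hashed sample (201310 to 14572926 in the dendritic classes) and tested with edgeR 4.0.16 (glmQLFit and glmQLFTest, TMM factors, Benjamini-Hochberg adjustment over all genes), with disease and treatment as terms; a gene was called at an adjusted p under 0.05. A class needed 20 cells in each sample. CPM are counts scaled to a fixed total of UMIs in the class and sample. Binomial intervals are exact, at 95%, and they and the 3-count limit on a share of 0 cover counting error only. Alternatives covered DESeq2 1.42.0, filters, clustering, hashtag calls and samples left out. Genes described one by one for panobinostat are the 12 of the 40 with the smallest p-values in cDC1-like cells. The procedure was tested on simulated data. The 40 genes and the other lists were chosen with earlier results of these data known.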

Additional observations from a re-analysis of the deposited data

Results flagged for a closer look

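In B cell-like cells 2 of 28 S-phase genes passed the threshold for a panobinostat effect that differs between leukemia and WT (0.527% of all genes were lower), by an interaction term in edgeR's quasi-likelihood test that was added after the data had been seen. WT has 1 sample per treatment, which the fit assumes to vary like the leukemia pairs, so the p-values do not rest on replicated WT samples. For Pclaf the log2 difference of leukemia minus WT was -4.80 (SE 0.63, edgeR adjusted p 8.24e-11). Its level was 240 and 21.1 CPM in leukemia with vehicle, 10.04 and 11.2 CPM in leukemia with panobinostat, 244 CPM in WT with vehicle and 450 CPM in WT with panobinostat. For Rrm2 the difference was -3.76 (SE 0.86, edgeR adjusted p 0.00387), with 64.2 and 10.5 CPM, 10.04 and 5.61 CPM, 42.9 CPM and 100.2 CPM in the same order. The leukemia vehicle samples lay far apart for both genes, and the samples held 69, 20, 36, 38, 72 and 61 cells in that order. These cells also carried pDC markers, at 2178 to 3810 CPM over the samples.

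Clusters that no comparison used also carried S-phase transcripts. The unnamed cluster led by Ms4a2 and Hdc held 4091 CPM of the 40 genes in 1575 cells, 1309 of them from leukemia vehicle 2. A cluster led by Tgm2, Mxd3 and Cep55, with Pclaf among its 10 leading genes, held 4090 CPM in 202 cells with a median of 1537.5 UMIs. Both lie above the 3875 CPM of the lowest myeloid progenitor-like sample, which held 16 cells.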

How the results depend on the processing

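Of 26 counts and shares, 11 stayed within 1.5 times their value or 1 SD in every alternative run. Among these 11, the counts for pDC-like against cDC1-like and against cDC2-like cells were above 0. The others were counts of 0 that stayed 0. A count has no sign that could reverse, and the log2 differences of the genes followed by name kept theirs. Genes called for panobinostat in cDC1-like cells (23) became 1 with cells thinned to 2000 UMIs, 12 with cell cycle genes in the clustering, 9 with doublets kept, 9 with the ratio hashtag call, 36 with no filter on low counts, 9 with DESeq2, 5 with leukemia samples alone, and 1 to 36 without 1 sample. For leukemia in cDC1-like cells (16) the counts were 3 thinned, 25 at resolution 0.5, 27 with library totals, 5 with DESeq2 and 2 to 28 without 1 sample. In mature DC-like cells panobinostat gave 1 with no filter, and leukemia gave 1 at resolution 0.5, 2 at resolution 2, 1 with cell cycle genes, 2 with no filter and 0 to 3 without 1 sample. In B cell-like cells panobinostat gave 0 to 3 without 1 sample, and leukemia 2 thinned, 10 with cell cycle genes, 0 with doublets kept, 1 with the ratio call, 0 with DESeq2 and 0 to 10 without 1 sample. Between classes, pDC-like minus mature DC-like gave 11 with library totals, and cDC1-like minus cDC2-like 0 at resolution 2, 0 with cell cycle genes, 0 with doublets kept and 0 to 1 without 1 sample. Thinned, 14 and 17 genes were higher in cDC1-like and cDC2-like than in mature DC-like cells, and the effect between cDC1-like and cDC2-like cells gave 0 to 1 without 1 sample. The mean share of S-phase-rich cells at 3 or more and 8 or more UMIs was 8.99 and 0.102% in pDC-like (0.869% at 5), 27.8 and 11.0% in cDC1-like (17.2%), 28.8 and 13.5% in cDC2-like (19.1%) and 12.1 and 3.04% in mature DC-like cells (5.56%). With doublets kept it was 1.65% in pDC-like and 21.9% in cDC2-like cells. The cause of these shifts was not tested; fewer samples and fewer genes tested come with some of them. With the hashtag number as a replicate block 22 genes were called in cDC1-like cells. Same-numbered leukemia samples deviated together over genes with r of 0.02 to 0.07. With 2 leukemia samples per treatment, these values cannot show whether the numbers pair the samples. Depth limits pDC-like cells most, with 201310 UMIs in WT panobinostat.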
